A study of Homo sapiens with 2 samples.

Results

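The genes described here encode 10 peptide hormone precursors that are made in the gut or, for prolactin, mainly in the pituitary: GCG, SST, PRL, PYY, CCK, NTS, GIP, GAST, GHRL and INSL5. They were chosen by their symbols and with their levels in these libraries known, so their levels are given as a description. The table holds 19989 genes, of which 4 were among the 10 (GCG, SST, PRL and NTS), while 6 had no row (PYY, CCK, GIP, GAST, GHRL and INSL5) and are counted as not detected. RNA-seq of poly(A)-selected RNA was carried out on the hNCI-H716 cell line, a human colorectal adenocarcinoma line from the cecum that serves as a human L-cell model, the L-cell being the enteroendocrine cell that secretes glucagon-like peptide-1 (GLP-1). The cells were grown in suspension in RPMI medium, plated on Matrigel, and a day later moved for 48 h to serum-supplemented DMEM with either low (5.5 mM) or high (25 mM) glucose. There was 1 library per glucose concentration, so differences could not be checked against replicates, no p-value was computed, and glucose cannot be told apart from any other difference between the 2 libraries. It is a single cancer-derived line, and nothing in the labels says that the libraries came from separate passages.

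Enteroendocrine cells store peptide hormones in dense-core granules and release them when nutrients reach the gut lumen. Many of these hormones are made as longer precursors, which convertases often cut at pairs of basic residues. Proglucagon, the product of GCG, gives rise to GLP-1 and GLP-2 in L-cells, where prohormone convertase 1 (PCSK1) does the cutting, and to glucagon in pancreatic α-cells. L-cells of the distal gut commonly make PYY along with GLP-1, and colonic L-cells also make INSL5, whereas somatostatin is the product of the neighbouring D-cell.

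GCG and SST stood far above the other hormone genes in both libraries, in reads and per kb of transcript. Levels are in CPM (counts scaled to a library of 1000000) after normalization by the trimmed mean of M-values (TMM), from estimated totals of 21757783 counts in low glucose and 19456542 counts in high glucose. Brackets hold 95% Wilson intervals, which cover counting error only. GCG was at 1954 CPM in low (1936 to 1973) and 1808 CPM in high glucose (1790 to 1827). Proglucagon transcripts thus made up 0.195% of the low glucose library and 0.181% of the high glucose library. SST, which encodes the inhibitory peptide somatostatin, was at 547 CPM in low (537 to 557) and 514 CPM in high glucose (504 to 524). Both genes were therefore lower in the high glucose library, and for neither gene did the intervals of the libraries overlap. In a bulk culture, fewer cells that express a gene and less RNA per cell cannot be told apart.

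PRL and NTS were present at a low level. PRL, which encodes the lactation hormone prolactin, was at 7.79 CPM in low (169 counts, 6.69 to 9.04) and 8.79 CPM in high glucose (171 counts, 7.55 to 10.2). NTS, which encodes neurotensin, a peptide of distal gut endocrine cells and of neurons, was at 2.87 CPM in low (62.0 counts, 2.23 to 3.66) and 2.48 CPM in high glucose (48.0 counts, 1.86 to 3.27). For both genes the intervals of the libraries overlapped, and both lay above the level of 3 counts. That level, 0.138 CPM in low and 0.154 CPM in high glucose, was taken as an approximate upper limit for a count of 0. Together, the 4 genes carried 0.251% of the low glucose library and 0.233% of the high glucose library. GCG made up 77.8% and 77.5% of that sum and SST 21.8% and 22.0%, in low and high glucose, respectively, which left PRL and NTS with under 1%.

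**Figure D1:**
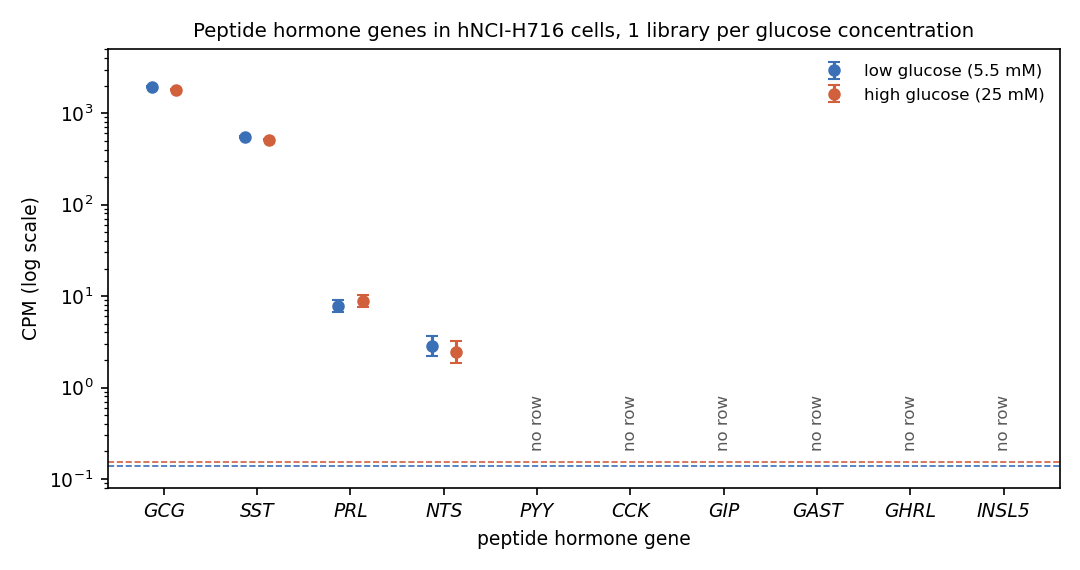
Level of each of the 10 peptide hormone genes (CPM, log scale) in the low glucose (blue) and high glucose (red) library, with 95% Wilson intervals for counting error; dashed lines mark the limit of 3 counts in each library. GCG and SST lie at 514 CPM or more in both libraries, PRL and NTS under 10 CPM, and 6 genes have no row.

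The remaining 6 hormone genes had no row in the table. PYY and INSL5, the companions of GLP-1 in the distal L-cell, were among them, as were CCK and GIP, the hormones of the proximal I- and K-cells, GAST, the gastrin gene, and GHRL, the ghrelin gene. None of the 6 had a row under an older symbol either, as far as the reference lists one. The methods of the study removed genes with a total expected count under 1 over both libraries, and the lowest total among the genes with a row was 1.01 counts, so a gene without a row has no value from which a limit could be computed. Whether this filter or something else left these 6 genes without a row cannot be seen from the table, in which many symbols are clone names from releases older than the GENCODE release that the methods name. For scale, 5758 of the 19878 protein-coding genes of GENCODE v29 outside the Y and mitochondrial chromosomes had no row under their symbol or an older one. As the hormone genes were chosen with this known, nothing is read from their share. CCK and GHRL are each overlapped by genes on the opposite strand, 1 for CCK and 4 for GHRL. Of those over GHRL, LINC00852 had a row under its older symbol GHRLOS2, at 0.288 CPM in low and 0.371 CPM in high glucose (6 and 7 counts). For the other overlapping genes no row was found, but some of them have clone names, under which a row could be missed.

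The genes with a row lie on different chromosomes of GRCh38. GCG (ENSG00000115263.14) is on chromosome 2, from 162142873 to 162152404 on the minus strand, and SST (ENSG00000157005.3) on chromosome 3, from 187668906 to 187670399 on the minus strand. PRL (ENSG00000172179.11) is on chromosome 6, from 22287244 to 22297501 on the minus strand, where it is overlapped by the long non-coding RNA gene CASC15 on the opposite strand. CASC15 had no row under its symbol or an older one, and since the library kit does not keep the strand, reads of the overlap could not be assigned by strand. NTS (ENSG00000133636.10) is on chromosome 12, from 85874295 to 85882992 on the plus strand. No annotated gene overlaps GCG, SST or NTS.

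The sequence just before the start site of each of these genes is shown because exact matches to short promoter motifs differ among them. The sequences are from RefSeq (GRCh38.p14) and are written 5′ to 3′ on the strand of the gene. Capitals mark any TATAAA (the letters of a TATA box), TGACGTCA (the cyclic AMP response element, CRE) or CACGTG, each on either strand. CACGTG is the canonical E-box, which CLOCK and BMAL1 bind. For GCG and PRL, where GENCODE starts the gene 157 and 465 bases before RefSeq, 30 bases around the TATA box are shown, at chr2:162152260-162152289 and chr6:22297050-22297079. For SST and NTS, 100 bases before the GENCODE start are shown, which for SST lies 5 bases before that of RefSeq, at chr3:187670400-187670499 and chr12:85874195-85874294.
GCG: agctggagagtaTATAAAagcagtgcgcct
PRL: atatcaaaggTTTATAAAgccaatatctgg
SST: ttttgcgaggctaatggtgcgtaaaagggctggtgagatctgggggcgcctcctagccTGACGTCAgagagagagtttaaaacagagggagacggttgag
NTS: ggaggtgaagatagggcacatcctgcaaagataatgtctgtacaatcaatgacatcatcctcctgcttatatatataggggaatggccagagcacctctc

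In GCG and PRL, the TATAAA opened 30 and 31 bases before the RefSeq start; in PRL the capitals also hold a match on the other strand that overlaps it. GCG had a further match on the other strand, 79 bases before the start and outside the stretch shown. SST carried the CRE 47 bases before its RefSeq start, and a TATAAA on the strand of the gene lay 215 bases before the start, outside the stretch shown. The stretch shown for NTS holds tatatata, a sequence similar to TATAAA that was not searched for. It also holds tgacatca, similar to the CRE, and the stretch of SST holds tttaaaa, neither of which was searched for. As exact letters, NTS had none of the 3 motifs in the 250 bases searched. Over all 35116 RefSeq start sites, 10.7% of windows of that length held TATAAA, 1.65% the CRE and 6.34% the E-box. Among the hormone genes, TATAAA was found in 3 of the 4 windows of genes with a row and in 4 of the 8 windows of genes without one (PYY and CCK have 2 starts each). Matches count wherever they lie, such as that of CCK at 211 bases and that of GAST on the other strand. They are therefore not counts of TATA boxes. The CRE was found in SST alone, and the E-box in 0 of the 12 windows. A match to these letters is a description of the window and not evidence of binding.

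Levels of different genes were compared per kilobase of the longest annotated transcript, since a long transcript yields more reads. GCG was at 1516 CPM per kb in low (1502 to 1531) and 1403 CPM per kb in high glucose (1388 to 1418). SST, whose transcript of 618 bases is shorter than the 1289 bases of GCG, was at 885 CPM per kb in low (869 to 901) and 832 CPM per kb in high glucose (816 to 849). GCG thus exceeded SST by 1.71 times in low glucose and 1.69 times in high glucose on this scale. The ratio depends on the transcript taken: with the median length of the annotated transcripts it was 2.76 and 2.72, and without division by length 3.57 and 3.52. GCG was the higher gene under each of these choices.

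PRL was at 5.71 CPM per kb in low (4.91 to 6.63) and 6.44 in high glucose (5.54 to 7.47). NTS was at 2.32 CPM per kb in low (1.80 to 2.96) and 2.0 in high glucose (1.5 to 2.64). SST exceeded PRL by 155 times in low glucose and 129 times in high glucose, and PRL exceeded NTS by 2.47 times and 3.22 times, respectively. Without division by length, SST exceeded PRL by 70.2 times in low glucose and 58.5 times in high glucose. The order per kb was GCG, SST, PRL and NTS in both libraries, and in neither did the counting intervals of neighbours in this order overlap. Ranks per kb were taken among the 14668 genes with a row and an annotated length, 73.4% of the table. GCG ranked 13 in low glucose and 15 in high glucose per kb, and SST ranked 38 and 37. PRL ranked 6988 and 6600, and NTS ranked 9197 and 9422, within the bulk of the distribution. Without division by length, among all 19989 genes with a row, GCG ranked 30 and 36, and SST ranked 238 and 266. On that scale PRL ranked 9860 and 9555, and NTS ranked 11493 and 11593.

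**Figure D2:**
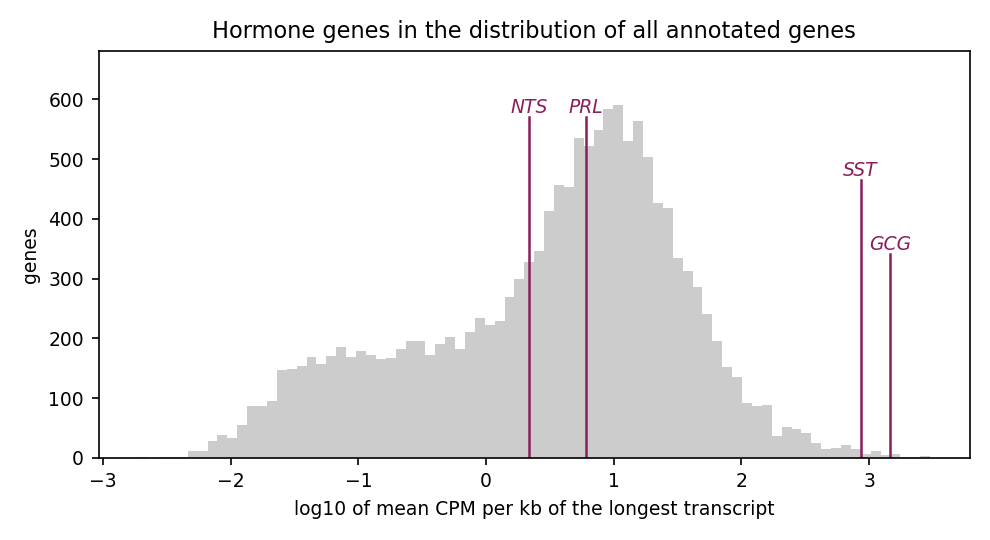
Number of genes (vertical axis) by the log10 of mean CPM per kb of the longest transcript (horizontal axis), for the 14668 genes with a row and an annotated length; vertical lines mark the hormone genes, and their heights only separate the names. GCG and SST lie at the upper end, and PRL and NTS within the main body of genes.

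Next, the libraries were compared with each other. GCG had a log2 ratio, high over low glucose, of -0.11 (95% exact binomial interval from counts, -0.13 to -0.09), and the change in its level was -7.47%. For SST the log2 ratio was -0.09 (-0.13 to -0.05), and the change in level -5.95%. PRL had a log2 ratio of 0.17 (-0.14 to 0.49) and NTS of -0.21 (-0.79 to 0.35), so that no difference was detectable for either gene at this depth. The median over the 4 genes was -0.10, against -0.01 over the 13052 genes that averaged 1 CPM or more.

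With 1 library a group, past the fold means a log2 ratio of 1 or more, or -1 or less. Of the 4 hormone genes, 0 were past it, where 0.835% of the 13052 genes were (0.215% higher and 0.621% lower in high glucose). The counting interval lay past 0 for 2 of the 4 hormone genes, GCG and SST, both lower in high glucose. It lay past 0 for 31.7% of the 13052 genes, with 15.8% higher and 15.9% lower in high glucose. The share rose with the level: it was 14.8% for genes with a mean from 1 to 10 CPM, where PRL and NTS lie, 61.1% from 100 to 1000 CPM, where SST lies, and 92% of the 88 genes at 1000 CPM and above, where GCG lies. An interval below 0, as GCG and SST had, was found for 55.7% of the 88 genes and for 24.6% of those from 100 to 1000 CPM. The SD of the log2 ratio was 0.14 among those 88 genes and 0.13 from 100 to 1000 CPM. The differences of GCG and SST exceeded counting error, but were smaller in size than the SD of genes at their level.

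**Figure D3:**
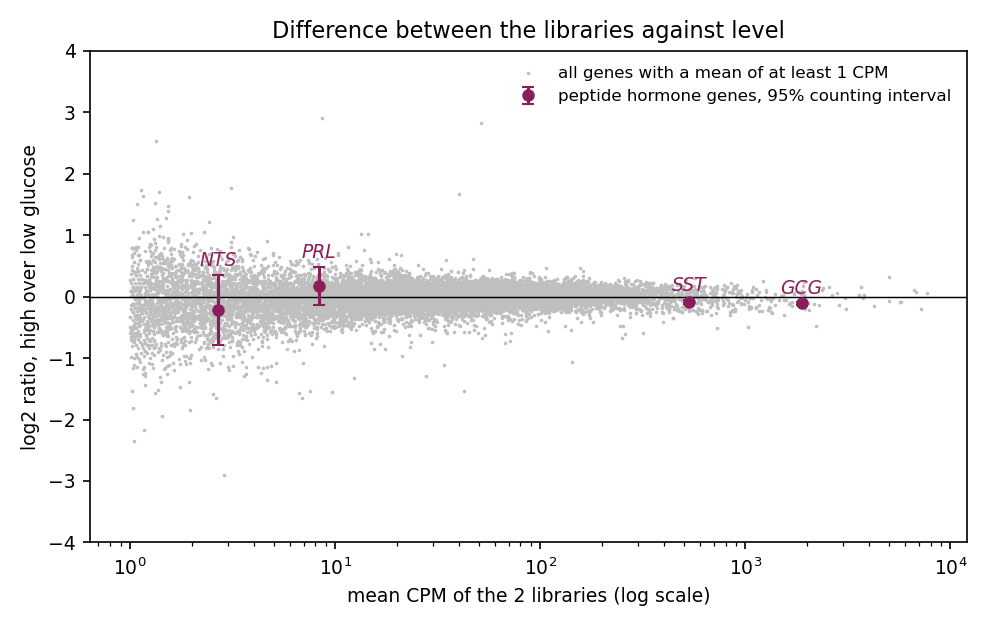
Log2 ratio of high over low glucose (vertical axis) against the mean CPM of the 2 libraries (horizontal axis, log scale) for each gene that averaged 1 CPM or more (grey; 7 genes beyond 4 in size are not drawn), with the hormone genes and their 95% counting intervals in purple. GCG and SST lie just under 0 with narrow intervals, and the intervals of PRL and NTS cross 0.

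Some markers of the endocrine cell and of the colon epithelium also differed between the libraries, and both lists are given beside GCG and SST for that reason. As they were chosen with this known, their medians are a description only. The 7 enteroendocrine markers with a row added to 2304 CPM in low and 2189 CPM in high glucose, with CHGB highest in CPM and NEUROD1 without a row. Their median log2 ratio was -0.06, against -0.11 for GCG and -0.09 for SST. The interval was below 0 for 4 of them, CHGA at -0.11 (-0.14 to -0.07), CHGB at -0.06 (-0.09 to -0.03), SCG3 at -0.11 (-0.15 to -0.06) and RFX6 at -0.22 (-0.39 to -0.06), and held 0 for SCG2, SYP and INSM1. By level, CHGA, CHGB and SCG3 lie where 24.6% of all genes had an interval below 0, and RFX6 where 15.5% had. The 8 colon epithelial markers added to 499 CPM in low and 564 CPM in high glucose. KRT8 was highest in CPM, and CDH1 and KRT20 were at 3 counts or fewer in each library. For the 6 that averaged 1 CPM or more, the median was 0.16, in the direction opposite to GCG and SST. The interval was above 0 for VIL1, the microvillus protein villin, at 0.61 (0.38 to 0.85), CDX2 at 0.33 (0.17 to 0.48), and the keratins KRT18 at 0.22 (0.16 to 0.29) and KRT8 at 0.11 (0.05 to 0.16). It held 0 for EPCAM, at 0.05 (-0.44 to 0.55), and KRT19, at -0.59 (-1.50 to 0.27). By level, KRT8 and KRT18 lie where 36.4% of all genes had an interval above 0, and VIL1 and CDX2 where 15.4% had. The part of these markers in the differences of GCG and SST was not tested. Processing genes, given below, went both ways, with an interval above 0 for PCSK1 and below 0 for SCG5 and TPST2.

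The genes closest in level, by Euclidean distance in log2 CPM over the 2 libraries, were RPS3A, RPL4 and B2M for GCG (distances 0.10, 0.10 and 0.11). RPS3A and RPL4 encode ribosomal proteins and B2M the light chain of MHC class I, so proglucagon transcripts gave about as many reads as those of abundant housekeeping genes. For SST they were PLOD3, EIF4B and MDH2 (0.01, 0.03 and 0.03), for PRL they included HMBOX1 and MYO18A (0.02 and 0.03), and for NTS TTC6 and XYLT1 (0.03 each). With 2 libraries, this measure reflects the level and little else.

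The levels of the neighbours on the chromosome were then set beside those of the hormone genes. GCG lies between DPP4, which encodes the peptidase that inactivates GLP-1, at a gap of 68.3 kb, and FAP, a related peptidase, at a gap of 18.3 kb. DPP4 was at 45.8 CPM in low and 50.4 CPM in high glucose, and FAP at 97.1 and 102 CPM. Per kb, GCG exceeded DPP4 by 129 and 109 times and FAP by 43.4 and 38.3 times in low and high glucose. The log2 ratio, high over low glucose, was 0.14 for DPP4 (0.01 to 0.27) and 0.07 for FAP (-0.02 to 0.16), against -0.11 for GCG. The nearest protein-coding genes with a row beside SST were RTP4, at a gap of 297 kb and with 1 count in each library, and BCL6, at a gap of 51.0 kb and at 2.27 CPM in low and 1.55 CPM in high glucose, with 1 protein-coding gene without a row between SST and BCL6. The nearest neighbours of PRL with a row were SOX4, at 154 and 152 CPM, which is 689 kb away, and DCDC2, at 0.795 and 0.628 CPM. Those of NTS were ALX1, at 6.36 and 4.73 CPM, and MGAT4C, at 0.518 and 0.371 CPM. The log2 ratio was -0.43 for ALX1 (-0.82 to -0.04), and for the other neighbours of SST, PRL and NTS the interval held 0. PRL was below SOX4, and NTS below ALX1, also per kb, whereas GCG and SST were each above both of these genes beside them.

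Further peptide hormones were taken from a list of 25 genes of the gut and islets. Of these, 10 had a row and 4 reached 1 CPM in both libraries: GUCA2B, NPW, GUCA2A and ADM. For scale, a row was found for 14120 of the 19878 protein-coding genes counted above. Among the 19989 genes with a row, 12795 reached 1 CPM in both libraries. GUCA2B, which encodes uroguanylin, an activator of intestinal guanylyl cyclase C, was at 365 CPM in low and 315 CPM in high glucose, with a log2 ratio of -0.21 (-0.26 to -0.16). Its relative GUCA2A, the guanylin gene, was at 15.8 and 14.9 CPM. NPW, which encodes neuropeptide W, was at 74.1 CPM in low and 59.3 CPM in high glucose, with a log2 ratio of -0.32 (-0.43 to -0.21). ADM, the adrenomedullin gene, was at 3.37 and 1.60 CPM, with a log2 ratio of -1.07 (-1.73 to -0.45). It was the single gene of this list past the fold among those that averaged 1 CPM or more, against 0.835% of the 13052 genes. That share pools all levels, and only 9 of the genes past the fold averaged at least 10 CPM. With a pseudocount of 1 CPM, ADM was no longer past the fold. The median log2 ratio of the 4 genes was -0.27, and all 4 were lower in high glucose, as were 6712 of the 13052 genes. Of the 4, 3 had an interval below 0, as did 15.9% of the 13052 genes. By level, that share was 24.6% from 100 to 1000 CPM, where GUCA2B lies. It was 15.5% from 10 to 100 CPM, where NPW lies, and 10.8% from 1 to 10 CPM, where ADM lies. The others with a row, GAL, NMU, UCN, UCN3, NPB and APLN, were under 1 CPM in each library, and their intervals held 0. NMU, UCN3 and NPB were higher in high glucose, and over all 10 genes with a row the median was -0.17. The 15 genes with no row included INS, IAPP and PPY of the islets, SCT, MLN, TAC1 and VIP of the gut, and NPY.

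Of 15 pituitary and hypothalamic hormone genes other than PRL, 3 had a row and 0 reached 1 CPM. Beside them, 14120 of 19878 protein-coding genes had a row, and 12795 of 19989 genes with a row reached 1 CPM in both libraries. GNRH1, which encodes gonadotropin-releasing hormone, was the highest of the 3, at 0.472 CPM in low and 0.525 CPM in high glucose. LHB and GHRH had at most 2 counts in a library. GH1, GH2, CSH1 and CSH2, the growth hormone and placental lactogen genes of the same family as PRL, had no row, nor did POMC, TSHB, FSHB or CGA. Per kb, PRL, at 5.71 and 6.44 CPM per kb, was above GNRH1, at 0.268 and 0.298 CPM per kb. Among 8 pituitary markers, POU1F1, the factor that drives PRL in lactotrophs, was at 4.75 CPM in low (3.91 to 5.75) and 4.12 CPM in high glucose (3.30 to 5.11). PITX1, a factor that is also made outside the pituitary, was at 76.6 and 74.6 CPM. LHX4 had 4 counts in each library, DRD2, the dopamine receptor of lactotrophs, was at 0.472 and 0.577 CPM, and LHX3 and GHRHR had no row. The part of these markers in the level of PRL was not tested.

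Processing of the precursors came next. Of 11 genes, 10 had a row and 8 reached 1 CPM in both libraries. Over all genes, a row was found for 14120 of 19878 protein-coding genes, and 12795 of 19989 rows reached 1 CPM in both libraries. PCSK1, the convertase that yields GLP-1, was at 555 CPM in low and 600 CPM in high glucose, and CPE, the carboxypeptidase that trims the cut ends, at 543 CPM in both. PCSK2, the convertase that yields glucagon in α-cells, was at 12.3 CPM in each library. PCSK2 was far lower also per kb, where PCSK1 was at 109 and 118 CPM per kb and PCSK2 at 2.59 in both. PAM, which amidates peptides such as GLP-1, was at 39.4 and 40.6 CPM. MBOAT4, which acylates ghrelin, had no row, like GHRL itself. The log2 ratio was 0.11 for PCSK1 (0.08 to 0.15), and the interval was below 0 for SCG5, a chaperone of PCSK2, at -0.56 (-0.98 to -0.15), and for TPST2, a tyrosine sulfotransferase, at -0.50 (-1.0 to -0.02). The median over the 8 genes was 0.00, with 4 higher and 4 lower, beside 6340 higher and 6712 lower of the 13052 genes. The interval was above 0 for 1 and below 0 for 2 of them, against 15.8% and 15.9% of the 13052 genes. By level, it was above 0 for 36.4% from 100 to 1000 CPM, where PCSK1 lies, and below 0 for 10.8% from 1 to 10 CPM, where SCG5 and TPST2 lie.

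Most receptors for the hormones did not reach 1 CPM in both libraries. Of 21 genes, 11 had a row and 6 reached 1 CPM in both libraries. The shares over all genes were 14120 of 19878 protein-coding genes with a row, and 12795 of 19989 rows at that level. SORT1, the sorting receptor sortilin, which also binds neurotensin, was the highest receptor, at 132 CPM in low and 131 CPM in high glucose. The somatostatin receptor SSTR1 was at 29.7 CPM in low and 27.4 CPM in high glucose, and SSTR5 at 5.12 and 4.12 CPM. The neurotensin receptor NTSR1 was at 5.26 and 5.04 CPM, and PRLR, the prolactin receptor, at 1.90 and 2.17 CPM. A receptor was therefore measured at 1 CPM or more for SST, NTS and PRL, the hormone genes with a row other than GCG. The receptors of the proglucagon peptides, GLP1R, GLP2R and GCGR, had no row.

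RXFP4, the receptor of INSL5, was at 5.90 CPM in low (4.96 to 7.0) and 8.89 CPM in high glucose (7.65 to 10.3), while INSL5 itself had no row. Its log2 ratio was 0.59 (0.25 to 0.93). SSTR2 was at 0.795 and 1.65 CPM, from 17.0 and 32.0 counts, with a log2 ratio of 1.06 (0.18 to 2.01). It was the single receptor past the fold among the 8 that averaged 1 CPM or more, where 0.835% of the 13052 genes were past it. As for ADM, that share pools all levels, and SSTR2 was no longer past the fold with a pseudocount of 1 CPM. For the other 6 of these 8 receptors the interval held 0, among them NPY1R, a receptor of PYY, at 1.53 and 0.885 CPM, with a log2 ratio of -0.79 (-1.74 to 0.09). The median over the 8 receptors was -0.04, with 3 higher and 5 lower, beside 6340 higher and 6712 lower of the 13052 genes. The counting interval was above 0 for 15.8% of the 13052 genes, and for 4.02% of those from 1 to 10 CPM, where RXFP4 and SSTR2 lie. GIPR, the receptor of GIP, was at 1.02 CPM in low and 0.577 CPM in high glucose, with overlapping intervals.

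**Figure D4:**
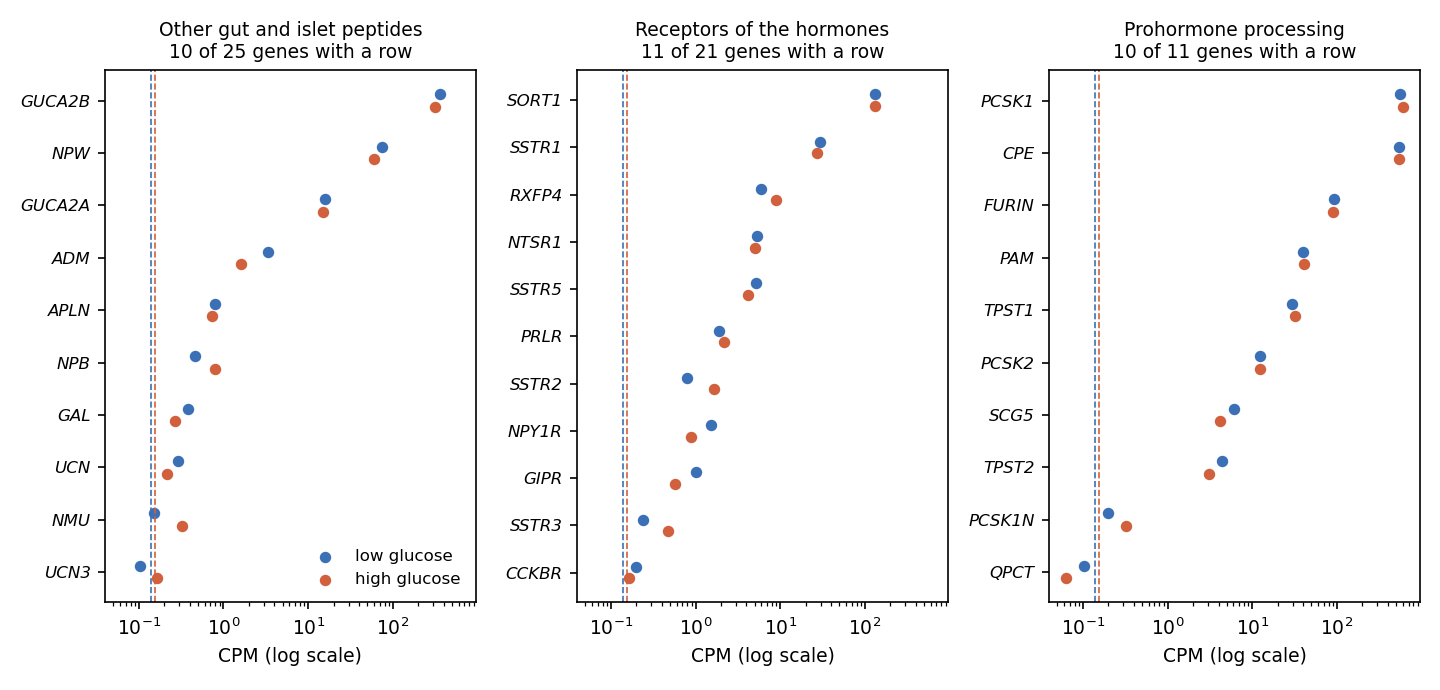
CPM (log scale) of other gut and islet peptides, of receptors and of processing genes with a row, in the low glucose (blue) and high glucose (red) library; dashed lines mark the limit of 3 counts in each library. PCSK1 and CPE lie at 543 CPM or more, SORT1 is the highest receptor at 132 and 131 CPM, and ADM and SSTR2 show the widest gaps between libraries among genes that averaged 1 CPM or more.

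Of 17 transcription factors known to act on GCG, SST or PRL, 17 had a row and 16 reached 1 CPM in both libraries. For comparison, 14120 of 19878 protein-coding genes had a row, and 12795 of 19989 genes with a row reached 1 CPM in both libraries. PDX1, which activates SST, was at 86.9 CPM in low and 95.5 CPM in high glucose, and ISL1, which acts on GCG and SST, at 75.2 and 75.4 CPM. CDX2, an activator of GCG in the intestine, was at 30.5 and 38.2 CPM, with a log2 ratio of 0.33 (0.17 to 0.48). PAX6, which also drives GCG, was at 1.41 and 1.19 CPM, and per kb at 0.194 and 0.164 against 7.52 and 9.42 for CDX2. CREB1, which binds the CRE, was at 46.0 and 48.0 CPM, and HHEX, a factor of D-cells, at 13 and 14.5 CPM. The median log2 ratio over the 16 genes was -0.00, with 8 higher and 8 lower, beside 6340 higher and 6712 lower of the 13052 genes. The interval was above 0 for 3 (CDX2, PDX1 and PKNOX1) and below 0 for 2 (TCF7L2 and ESR1), against 15.8% and 15.9% of the 13052 genes. From 10 to 100 CPM, where these lie apart from ESR1, the shares were 15.4% and 15.5%, and 10.8% of genes from 1 to 10 CPM, where ESR1 lies, had an interval below 0.

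The label of the line was checked against its defining markers. Of 8 enteroendocrine markers, 7 were above 1 CPM in both libraries, while NEUROD1 had no row. Highest in CPM were the granins CHGB, at 836 and 800 CPM, and CHGA, at 704 and 653 CPM. Of all 19989 genes with a row, 12795 reached 1 CPM in both libraries. Per kb, GCG, at 1516 and 1403 CPM per kb, was above CHGA, at 341 and 316, and CHGB, at 328 and 314. Of the 3 L-cell hormones, GCG had a row, and PYY and INSL5 did not. Of 8 colon epithelial markers, KRT8 (270 and 291 CPM), KRT18 (182 and 212 CPM), CDX2 and VIL1 were above 10 CPM, and EPCAM was at 3.37 and 3.50 CPM. KRT19 was at 1.49 and 0.987 CPM, and neither CDH1 nor KRT20 had more than 3 counts in a library. The line thus carried GCG and the granins of an endocrine cell, along with SST, and lacked a measured value for the other hormones of the L-cell.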

How the data were processed

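hNCI-H716 cells gave 1 library for each glucose concentration, grouped by the treatment label. The authors trimmed reads with Trim Galore 0.5.0, aligned them to GRCh38 with GENCODE v28 gene models in STAR 2.6.0, estimated counts with RSEM 1.3.1, removed genes with a total under 1 and named TMM in edgeR. They deposited CPM and log2 CPM per library, with a small prior. The log2 values matched the CPM. Other columns hold the authors' mean of the libraries and their fold and log2 difference of high over low glucose, and were not used.

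Low values rise in steps of 1 count, worth 0.0460 CPM in low and 0.0514 CPM in high glucose. This gave totals of 21757783 and 19456542 counts. Of values under 10 CPM, 75.3% and 76.1% were whole counts to within 0.05, so no count model was run. Without the prior, each library added to 1000000, so the deposited CPM were divided by TMM factors computed here, 0.998 and 1.002, with the prior kept. Intervals were Wilson for levels and exact binomial for log2 ratios, at 95%. Calculations used Python 3.11.15, numpy 2.4.6, pandas 2.3.3 and scipy 1.17.1, and were tested on simulated data. Lengths and positions were from GENCODE v29 on GRCh38, and promoters from RefSeq.

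The hormone genes, the other lists and the alternatives were chosen with earlier results of these data known. Named genes were the 10 hormone genes, list members by level or past the fold, the 3 genes closest in level to each hormone gene with a row, and the nearest protein-coding gene with a row on each side. Some genes that this rule names are not reported here. Alternatives were library totals, median-of-ratios factors, removal of the prior, a pseudocount of 1 CPM, other filters and other transcript lengths, of which that of the longest coding transcript was added after seeing the data.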

Additional observations from a re-analysis of the deposited data

How the results depend on the processing

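Over 42 results, 107 values were recomputed under an alternative; 93 stayed within the counting interval, the SD of the list or 1.5 times the main count, and 14 moved. The sign changed in 2, both of the median log2 ratio of the transcription factors, which was -0.00, and 0.04 with a mean of at least 10 CPM and 0.00 with library totals, each within the SD of the list. The CPM and log2 ratios of GCG, SST, PRL and NTS were among those that stayed, under library totals, median-of-ratios factors, removal of the prior and, for ratios, a pseudocount of 1 CPM. With TMM factors of 0.998 and 1.002 and a prior of 0.0121 CPM, library totals and removal of the prior could hardly move them. The ratio of GCG to SST per kb, 1.71 in low glucose and 1.69 in high glucose, was 2.76 and 2.72 with the median transcript length, and 3.57 and 3.52 without division by length. That of SST to PRL, 155 and 129, was 70.2 and 58.5 without division by length. These follow from the lengths by construction. The length of the longest coding transcript, an alternative chosen after seeing the data, equals that of the longest transcript for GCG, SST, PRL and NTS, so its 6 ratios are identical by construction, say nothing about stability and are not counted. Some of the 93 values could not move either. Without a filter, the medians of the hormone genes and of the enteroendocrine markers use the same genes. The 93 is therefore no measure of stability. The number of genes past the fold, 109 with a mean of at least 1 CPM, was 2932 with no filter, 9 with a mean of at least 10 CPM and 31 with a pseudocount of 1 CPM, since filters and pseudocounts act on low genes by construction. The other 5 moves were counts of list members under another filter. Depth limits NTS most among the hormone genes with a row. No paired analysis was possible because there is 1 library at each concentration.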

Other observations

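ALB, which encodes albumin, the main secreted protein of hepatocytes, was at 456 CPM in low and 487 CPM in high glucose, with a log2 ratio of 0.09 (95% exact binomial interval from counts, 0.05 to 0.13). It was placed in a list of 7 markers of other cell types, of which it was the single gene at 1 CPM or more in both libraries. PECAM1, DES, HBB and COL1A1 were each under 0.5 CPM, and PTPRC and DCN had no row. No explanation was tested for the level of ALB.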
